A study of Mus musculus with 41 samples.

Results

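The genes described here encode 9 receptors through which myeloid cells sense chemokines and other chemoattractants: the CC chemokine receptors Ccr1 and Ccr2, the CXC chemokine receptors Cxcr2 and Cxcr4, the CX3C chemokine receptor Cx3cr1, the chemerin receptors Cmklr1 and Ccrl2, and the formyl peptide receptors Fpr1 and Fpr2. They were chosen by gene symbol, with earlier results of these data known. They are 9 of the 55453 genes in each of the 3 tables analysed. The study placed MC38-luc cells, a mouse colon carcinoma line carrying luciferase, in the rectum of female C57BL6 mice. Tumours received either no radiation or 5 daily fractions of 5 Gy on days 9 to 13 after implantation, and all were harvested on day 14. The sort took 3 kinds of CD45+ CD11b+ myeloid cell: tumour-associated macrophages (Ly6C-, Ly6G-, F480+; 5 untreated and 10 irradiated libraries), inflammatory monocytes (Ly6C+, Ly6G-; 5 untreated and 9 irradiated) and granulocytes (Ly6C+, Ly6G+; 5 untreated and 7 irradiated). All groups come from tumours of the same transplanted line and were taken at a single time, and the labels do not give the age of the mice.

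Chemokine receptors are seven-helix proteins coupled mainly to inhibitory G proteins, and binding of a ligand starts directed migration. Ccr2 brings classical monocytes out of the bone marrow towards Ccl2 and Ccl7, Cxcr2 draws neutrophils towards Cxcl1 and Cxcl2, Cxcr4 holds cells near Cxcl12, and Cx3cr1 binds the membrane-anchored chemokine Cx3cl1 and marks patrolling monocytes and many resident macrophages. Cmklr1 signals on binding chemerin, the product of Rarres2, whereas Ccrl2 binds chemerin without classical signalling and presents it to other cells. Fpr1 and Fpr2 sense formylated peptides from bacteria and mitochondria, and Fpr2 also binds annexin A1 and serum amyloid A.

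Each comparison sets irradiated against untreated cells of 1 sorted subset. The values are those of the authors' deposited tables: a log2 fold change (irradiated over untreated), a Wald statistic and a p-value adjusted over the genes tested. A gene was called higher or lower at an adjusted p under 0.05, with the direction of the Wald statistic. For 16 genes called in macrophages the sign of the fold goes against the Wald statistic, so both cannot come from 1 estimate. The deposited log2 fold changes are taken here to be shrunken towards 0, so they may understate changes, but this is not certain. For all 27 receptor values the fold and the Wald statistic had the same sign. The values of each library are not analysed here, so neither the spread between tumours nor the depth of a library is known, and the labelled cell types could not be checked against the level of their markers. The authors' mean normalised count of these genes, identical in the 3 tables, ran from 258.9 for Cmklr1 to 43460 for Ccr1, the 54.5th and 99.66th percentiles of the genes tested in macrophages. These means are not per length and do not give the level in any 1 subset. In sorted bulk cells, fewer cells of a type and less RNA per cell cannot be told apart.

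Most of these receptors were higher in irradiated macrophages, some were higher in irradiated monocytes, and the calls in granulocytes went both ways. In macrophages 7 of the 9 genes rose (Cxcr4, Ccrl2, Cmklr1, Cxcr2, Fpr2, Fpr1 and Ccr1), 1 fell (Cx3cr1) and Ccr2 was not called. Of all 16851 genes tested in that comparison 26.4% were called, 13.9% higher and 12.5% lower, against 88.9% of the receptors. In monocytes 3 rose (Fpr1, Cxcr2 and Ccrl2) and none fell, or 33.3% of the receptors, against 5.90% of the 14506 genes tested, 4.13% higher and 1.77% lower. At an unadjusted p under 0.05 the monocyte counts were 5 higher and 1 lower, where 19.7% of all genes tested passed. In granulocytes 1 rose (Cmklr1) and 2 fell (Cx3cr1 and Ccr1), or 33.3% of the receptors, against 17.2% of the 15679 genes tested, 7.32% higher and 9.90% lower. The median Wald statistic of the 9 genes was 3.28 in macrophages, 2.77 in monocytes and 0.80 in granulocytes, beside 0.14, 0.11 and -0.14 over all genes tested in the authors' deposited tables.

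**Figure D1:**
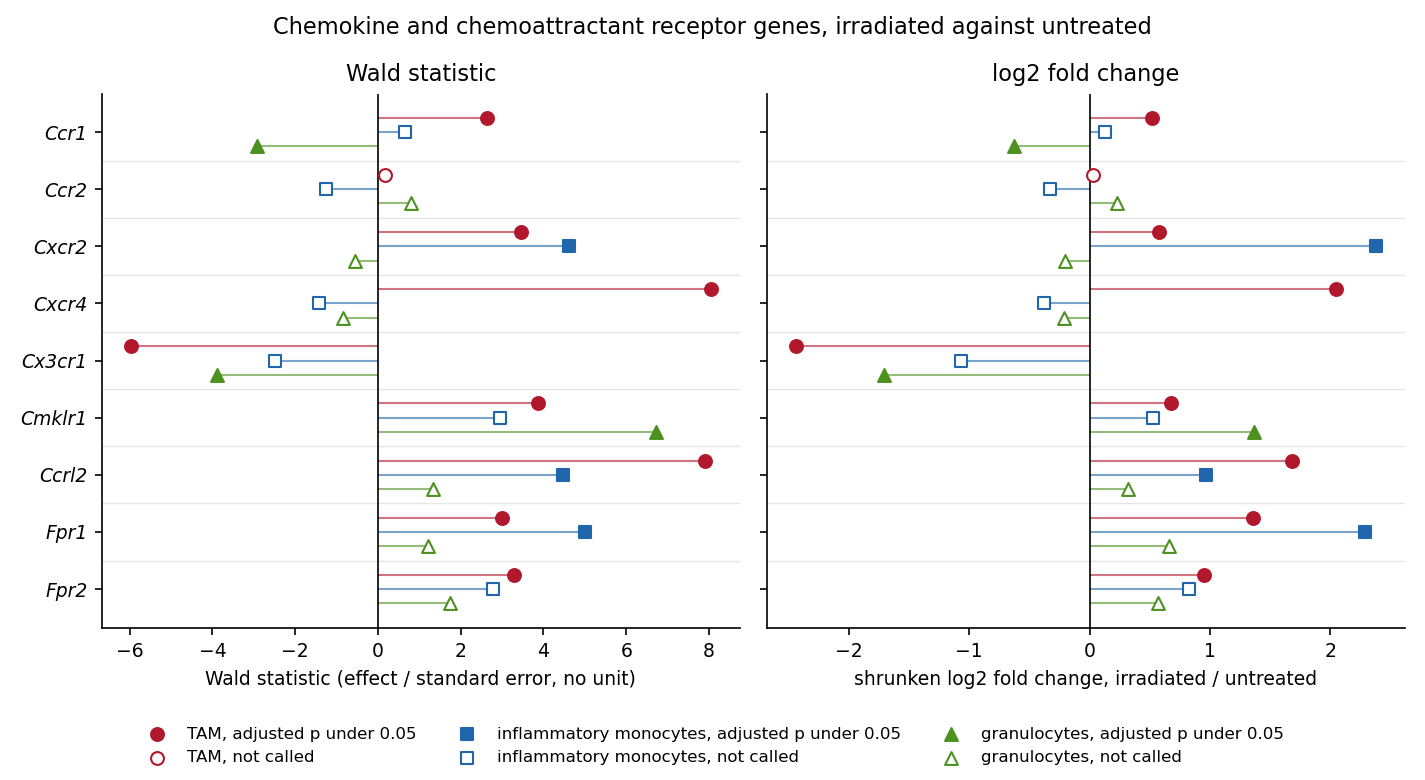
Wald statistics (left, no unit) and shrunken log2 fold changes (right) of the 9 receptor genes, irradiated against untreated, in the 3 sorted subsets (TAM, tumour-associated macrophages), from the authors' deposited tables; filled points are genes called at an adjusted p under 0.05. By Wald statistic Cxcr4 and Ccrl2 lie highest in macrophages, Fpr1 in monocytes and Cmklr1 in granulocytes, and Cx3cr1 is below 0 in every subset.

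These counts have several limits. The 9 receptors were chosen with earlier results of these data known, so their share above that of all genes is no test of the family. In macrophages the genes with the highest mean counts lay above 0 as a whole: the highest of 10 equal groups of genes ordered by mean had a median Wald statistic of 1.85 and held Ccr1, Ccr2, Cxcr2, Ccrl2 and Fpr1. When each Wald statistic was centred on the median of its group, the macrophage count went from 8 to 4 (3 higher and 1 lower), with Ccr1, Cxcr2, Fpr1 and Fpr2 no longer called, whereas the monocyte and granulocyte counts stayed at 3 and 3. Of all genes tested, 24.0%, 5.58% and 16.6% were called after centring in macrophages, monocytes and granulocytes. The counts and shares of the other gene lists below are given without such centring. When the Wald statistics were instead divided by their own robust SD over genes, which was 2.72 in macrophages, 1.56 in monocytes and 2.09 in granulocytes, none of the 9 genes was called in any subset, and 0, 25 and 0 of all genes were. That SD spans the changed genes as well and exceeds 1 in each subset, so the division could lose calls and gain none.

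The promoters of 4 of the 9 genes are shown because these genes head the results: Cxcr4, Fpr1 and Cmklr1 had the highest Wald statistic of the 9 in macrophages, monocytes and granulocytes, and Cx3cr1 the lowest in all 3. Each window is 300 bases of the RefSeq promoter table for GRCm38.p6, from 250 bases before the gene's start to 50 after it, written 5′ to 3′ on the gene's strand. They lie at chr1:128592250-128592549, minus strand (Cxcr4), chr17:17883890-17884189, minus strand (Fpr1), chr5:113643554-113643853, minus strand (Cmklr1) and chr9:120068247-120068546, minus strand (Cx3cr1). Capitals mark matches, on either strand, to any of the motifs searched.
Cxcr4: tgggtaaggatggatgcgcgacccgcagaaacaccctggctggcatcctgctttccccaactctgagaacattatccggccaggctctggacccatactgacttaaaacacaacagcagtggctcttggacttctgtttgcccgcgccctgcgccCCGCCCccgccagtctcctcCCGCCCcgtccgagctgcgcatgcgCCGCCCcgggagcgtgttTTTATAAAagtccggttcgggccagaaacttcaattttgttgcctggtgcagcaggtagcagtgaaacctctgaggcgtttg
Fpr1: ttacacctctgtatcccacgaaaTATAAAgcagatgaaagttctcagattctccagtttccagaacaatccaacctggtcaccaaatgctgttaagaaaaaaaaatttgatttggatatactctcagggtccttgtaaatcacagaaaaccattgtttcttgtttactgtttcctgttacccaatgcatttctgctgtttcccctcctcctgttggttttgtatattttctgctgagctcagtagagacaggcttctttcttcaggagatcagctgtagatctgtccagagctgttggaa
Cmklr1: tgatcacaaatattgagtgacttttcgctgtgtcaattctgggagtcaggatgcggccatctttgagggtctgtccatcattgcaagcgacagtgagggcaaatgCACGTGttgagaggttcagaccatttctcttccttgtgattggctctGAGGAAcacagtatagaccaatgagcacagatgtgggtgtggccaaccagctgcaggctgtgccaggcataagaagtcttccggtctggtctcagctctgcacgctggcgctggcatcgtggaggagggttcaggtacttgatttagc
Cx3cr1: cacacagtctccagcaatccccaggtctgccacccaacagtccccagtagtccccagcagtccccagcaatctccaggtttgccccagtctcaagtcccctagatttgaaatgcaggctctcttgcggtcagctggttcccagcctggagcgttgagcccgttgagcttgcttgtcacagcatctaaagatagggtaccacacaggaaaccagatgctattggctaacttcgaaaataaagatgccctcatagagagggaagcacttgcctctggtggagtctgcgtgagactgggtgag

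The motifs searched were the GC box GGGCGG, the TATA box TATAAA, the PU.1 core GAGGAA, the HIF core ACGTG, the AP-1 site TGANTCA, an NF-kB form made of GGG and TTTCC with 2 unspecified bases between them, and an interferon form made of GAAA and GAAA with 2 unspecified bases between them. The Cxcr4 window held 3 GC boxes and 2 overlapping TATA matches on opposite strands, and was the richest in GC of the 9, with 59.3% GC and 20 CG pairs. Fpr1, with 40.0% GC and 1 CG pair, held 1 TATA match, and Cmklr1 held a PU.1 core and a palindromic HIF core, counted on both strands. The Cx3cr1 window held no match. Of all 32851 windows in the table, 35.7% held a GC box, 13.6% a TATA box, 28.3% a PU.1 core, 19.6% a HIF core, 7.81% an AP-1 site, 1.63% the NF-kB form and 3.44% the interferon form. Among the 9 genes a PU.1 core was found in 4 (Ccr1, Cmklr1, Cxcr2 and Fpr2), a TATA box in 3 (Cxcr4, Fpr1 and Fpr2), a HIF core in 2 (Ccrl2 and Cmklr1), a GC box in 2 (Ccrl2 and Cxcr4), and the AP-1, NF-kB and interferon forms in none. A match is a run of letters and no evidence of binding.

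Of the CC receptors, Ccr1 was called higher in macrophages and lower in granulocytes. Ccr1 binds Ccl3, Ccl5 and Ccl9 and is carried by monocytes, macrophages and neutrophils. It did not pass the test of opposite effects between these subsets described below (adjusted p 0.72). Ccr1 rose in macrophages, with a log2 fold change of 0.52, a Wald statistic of 2.63 and adjusted p = 0.036 in the authors' deposited table. In granulocytes Ccr1 fell, with a log2 fold change of -0.63, a Wald statistic of -2.92 and adjusted p = 0.026 in the authors' deposited table. Ccr1 was not called in monocytes, at 0.13 on the log2 scale with adjusted p = 0.78 in the authors' deposited table. Both Ccr1 calls lie near the threshold: adjusting over every gene with a p-value gave 0.066 in macrophages and 0.053 in granulocytes, and centring by mean count gave 0.63 in macrophages.

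Ccr2, the receptor for Ccl2 on classical monocytes, was the only 1 of the 9 called in no subset. Its log2 fold change in the authors' deposited tables was 0.03 in macrophages, -0.33 in monocytes and 0.23 in granulocytes, with adjusted p of 0.93, 0.53 and 0.65. The macrophage value of Ccr2 turned from a Wald statistic of 0.17 to -1.68 on centring by mean count, and remained uncalled. Other genes that mark classical monocytes went differently from Ccr2 in macrophages: 7 of 11 tested rose and none fell, among them Ly6c2 (1.96 on the log2 scale, the antigen of the Ly6C gate) and Hp (haptoglobin, 3.22) in the authors' deposited table. Of the same 11 genes, none was called in monocytes by the authors' DESeq2 test (2 higher at an unadjusted p under 0.05), and 4 rose in granulocytes, among them Ly6c2 at 1.82 on the log2 scale. Of all genes tested, 13.9%, 4.13% and 7.32% were called higher in macrophages, monocytes and granulocytes.

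Among the CXC receptors, Cxcr4 had the highest Wald statistic of the 9 in macrophages. Cxcr4, which binds Cxcl12 and Mif, rose 4.13-fold there, a log2 fold change of 2.05 with a Wald statistic of 8.04 (adjusted p = 2.1e-13) in the authors' deposited table, and ranked 73rd by absolute Wald statistic among 16851 genes. The other subsets gave no call: the log2 fold change of Cxcr4 in the authors' deposited tables was -0.38 in monocytes (adjusted p 0.46) and -0.21 in granulocytes (adjusted p 0.62).

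Cxcr2, a receptor for Cxcl1, Cxcl2 and Cxcl3 that neutrophils carry, rose in the subsets gated without Ly6G. In monocytes Cxcr2 rose 5.21-fold, a log2 fold change of 2.38 with a Wald statistic of 4.62 (adjusted p = 4.6e-04) in the authors' deposited table. In macrophages Cxcr2 rose 1.49-fold, a log2 fold change of 0.58 (adjusted p = 0.0039) in the authors' deposited table, and this call was lost on centring by mean count (adjusted p 0.25). In granulocytes, the subset in which neutrophils are sorted, Cxcr2 was not called, at -0.20 on the log2 scale with adjusted p = 0.77 in the authors' deposited table.

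Cx3cr1, the fractalkine receptor, had the lowest Wald statistic of the 9 in each subset. In macrophages Cx3cr1 fell to 0.185 of the untreated value, a log2 fold change of -2.44 with a Wald statistic of -5.97 (adjusted p = 1.1e-07) in the authors' deposited table. In granulocytes Cx3cr1 fell to 0.305 of it, a log2 fold change of -1.71 with a Wald statistic of -3.88 (adjusted p = 0.0021) in the authors' deposited table. The monocyte value of Cx3cr1 had the same sign and was not called, at -1.07 on the log2 scale with adjusted p = 0.12 in the authors' deposited table.

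Other markers of patrolling monocytes gave mixed values beside Cx3cr1. Of 9 tested without Cx3cr1, 1 rose and 3 fell in macrophages, none rose and 1 fell in monocytes, and none rose and 3 fell in granulocytes. Of all genes tested, 26.4%, 5.90% and 17.2% were called in either direction in these subsets. Treml4 (-1.88 on the log2 scale) and Cd300e (-2.04) fell in macrophages while Nr4a1, a nuclear receptor needed for that monocyte type, rose (1.22) in the authors' deposited table. Treml4 was the gene that fell in monocytes (-0.85), and Eno3 (-1.50), Itgal (-0.73) and Cd300e (-1.51) fell in granulocytes in the authors' deposited tables. The part of such cells in the Cx3cr1 result was not tested.

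The chemerin receptors were among the genes with the largest Wald statistics of a subset, Cmklr1 in granulocytes and Ccrl2 in macrophages. Cmklr1 rose 2.58-fold in granulocytes, a log2 fold change of 1.37 with a Wald statistic of 6.71 (adjusted p = 1.1e-08) in the authors' deposited table, and ranked 28th by absolute Wald statistic among 15679 genes. In macrophages Cmklr1 rose 1.61-fold, a log2 fold change of 0.68 (adjusted p = 0.0010) in the authors' deposited table. In monocytes Cmklr1 had a log2 fold change of 0.53 (adjusted p = 0.051) in the authors' deposited table, which became 0.042 when adjusted over genes whose mean count reached 50. In granulocytes 7 of 14 macrophage markers also rose and none fell, where 7.32% of all genes tested were called higher. The part of macrophages in the granulocyte result of Cmklr1 was not tested.

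Ccrl2, the atypical receptor that holds chemerin at the cell surface, rose in macrophages and monocytes. It rose 3.20-fold in macrophages, a log2 fold change of 1.68 with a Wald statistic of 7.91 (adjusted p = 5.3e-13) in the authors' deposited table, next to Cxcr4 among the 9. In monocytes Ccrl2 rose 1.95-fold, a log2 fold change of 0.97 (adjusted p = 7.8e-04) in the authors' deposited table. Its granulocyte value was not called, at 0.32 on the log2 scale with adjusted p = 0.39 in the authors' deposited table.

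Both formyl peptide receptors had positive Wald statistics in all 3 subsets. Fpr1 had the highest of the 9 in monocytes, where it rose 4.90-fold, a log2 fold change of 2.29 with a Wald statistic of 5.01 (adjusted p = 1.0e-04) in the authors' deposited table. Fpr1 rose 2.57-fold in macrophages, a log2 fold change of 1.36 (adjusted p = 0.014) in the authors' deposited table, and was not called in granulocytes (0.66 on the log2 scale, adjusted p 0.44). Fpr2 rose in macrophages, with a log2 fold change of 0.95 (adjusted p = 0.0066) in the authors' deposited table. In the authors' deposited tables Fpr2 was not called in monocytes (0.83 on the log2 scale, adjusted p 0.075) or granulocytes (0.57, adjusted p 0.24). On centring by mean count the macrophage calls of Fpr1 and Fpr2 were lost, with adjusted p of 0.44 and 0.057.

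Neutrophils carry Cxcr2, Fpr1 and Fpr2, and many other neutrophil markers also had positive Wald statistics in macrophages and monocytes. Of 17 markers tested without Cxcr2, 14 were called higher in macrophages and 9 in monocytes, and none lower in either. In granulocytes 1 rose (Mmp8) and 1 fell (Trem1). Of all genes tested, 13.9%, 4.13% and 7.32% were called higher in macrophages, monocytes and granulocytes. The median Wald statistics of the 17 markers were 3.91, 3.04 and 0.28 in the authors' deposited tables. S100a8, a calgranulin subunit, rose with a log2 fold change of 2.77 in monocytes, and Retnlg, a neutrophil resistin-like gene, rose with 2.57 in the authors' deposited table. Clec4d, a C-type lectin, rose with 1.57 in macrophages in the authors' deposited table. For 6 of the 14 macrophage calls the shrunken fold was negative beside a positive Wald statistic, so the direction of these 6 is uncertain. Among them were S100a9 (-1.24 beside 4.16) and the granule genes Ngp (-0.59 beside 9.20) and Camp (-0.77 beside 8.66) in the authors' deposited table. The part of neutrophils in the Cxcr2, Fpr1 and Fpr2 results in the subsets gated without Ly6G was not tested.

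The subsets were sorted from shared tumours: by the labels' tumour numbers, 5 untreated and 6 irradiated tumours gave libraries of all 3, so the comparisons are not independent of each other. Across subsets, no receptor gene was called in all 3, 6 were called in 2, Cxcr4 and Fpr2 in 1 and Ccr2 in none. Wald statistics had 1 sign in all 3 subsets for 5 genes, positive for Cmklr1, Ccrl2, Fpr1 and Fpr2 and negative for Cx3cr1. Of the 14506 genes tested in all 3, 46.0% had 1 sign throughout, 9.43% were called in 2 subsets and 1.98% in all 3. Opposite effects in a pair of subsets were tested by taking, for genes whose signs differed, the larger p of the pair, adjusted over the genes tested in both. No receptor gene passed for any pair. Ccr1 in macrophages and granulocytes came nearest, with a larger p of 0.0085 and an adjusted p of 0.72, while 15 of 15679 genes, 0.0957%, passed for that pair and none for the pairs with monocytes. Cxcr4, called in macrophages alone, had a larger p of 0.16 against monocytes and of 0.40 against granulocytes, both with an adjusted p of 1.0. The deposited tables give no standard error, so whether the size of an effect differs between subsets was not tested.

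**Figure D2:**
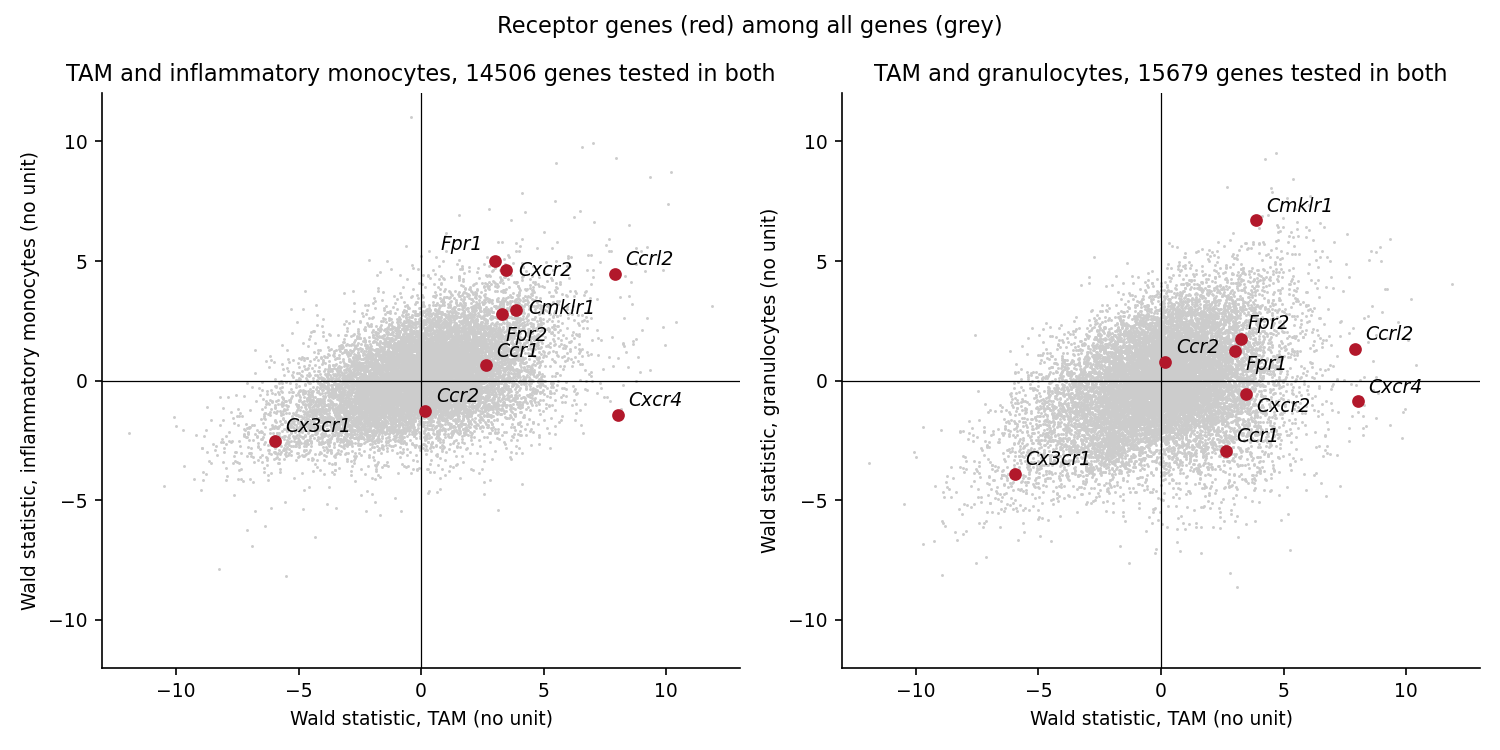
Wald statistics (no unit) in macrophages (TAM, horizontal) against monocytes (left) and granulocytes (right), from the authors' deposited tables; grey points are all genes tested in both and red points the 9 receptor genes. Cxcr4 stands far to the right with values below 0 in the other subsets, Cx3cr1 is negative in all, and Ccr1 is positive in macrophages and negative in granulocytes.

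The ligands of these receptors, 25 genes measured in the same sorted cells, were called higher more often than lower. By Wald statistic, 10 were called higher and 1 lower in macrophages, 4 and none in monocytes, and 4 and 1 in granulocytes. The median Wald statistics were 2.19, 1.27 and 0.44 in the authors' deposited tables. The macrophage calls include Camp, an Fpr2 ligand, with a log2 fold change of -0.77 beside a Wald statistic of 8.66, so its direction is uncertain. The shares called were 44.0%, 16.0% and 20.0%, beside 26.4%, 5.90% and 17.2% of all genes.

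For Cxcr2, the neutrophil chemokines Cxcl1 (1.25 on the log2 scale), Cxcl2 (1.03), Cxcl3 (1.70) and Ppbp (1.71) rose in macrophages in the authors' deposited table. None of these 4 was called in monocytes or granulocytes. In granulocytes Cxcl1 (0.71 on the log2 scale) and Ppbp (1.22) had positive values in the authors' deposited table. Those of Cxcl2 (-0.67 on the log2 scale) and Cxcl3 (Wald statistic -2.14) were negative there. Cxcl5, another Cxcr2 ligand examined, was called in no subset. For Ccr1, Ccl9 rose in macrophages (1.01 on the log2 scale) and granulocytes (0.70), and Ccl5 rose in macrophages (2.09), monocytes (1.70) and granulocytes (1.47) in the authors' deposited tables. The other Ccr1 ligands examined, Ccl3, Ccl6 and Ccl7, were called in no subset. In granulocytes they stood at -0.64, -0.73 and 0.61 on the log2 scale in the authors' deposited table. The Ccr2 ligands Ccl2, Ccl7 and Ccl12 were called in no subset, with Ccl2 at -0.39, 0.35 and 0.75 on the log2 scale in macrophages, monocytes and granulocytes in the authors' deposited tables.

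Cx3cl1, the ligand of Cx3cr1, fell in macrophages (log2 fold change -1.56, adjusted p 0.021) and granulocytes (-2.21, adjusted p 0.0025) in the authors' deposited tables. It stood at -1.47 with an adjusted p of 0.092 in monocytes. Cx3cr1 and Cx3cl1 were thus both called lower in macrophages and granulocytes. Cxcl12, the ligand of Cxcr4, had a mean normalised count of 6.806 and was not called in any subset, nor was Mif. Rarres2, the chemerin gene, was not called either, with a mean of 18.36 in the authors' deposited tables.

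Of the Fpr2 ligands, the acute-phase gene Saa3 rose in every subset, with log2 fold changes of 2.63, 2.86 and 3.92 in macrophages, monocytes and granulocytes in the authors' deposited tables. Saa1 was called higher in every subset too, although in monocytes its shrunken log2 fold was 0.11 beside a Wald statistic of 8.72 in the authors' deposited table. Saa1 has a near-identical copy in Saa2, so its reads may be divided between them. Anxa1, the annexin A1 gene shared by Fpr1 and Fpr2, was not called in any subset. The ligand Lgals3, galectin-3, rose in macrophages with 0.64, and Ccl8, a monocyte chemoattractant, rose in monocytes with 1.53 in the authors' deposited tables.

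**Figure D3:**
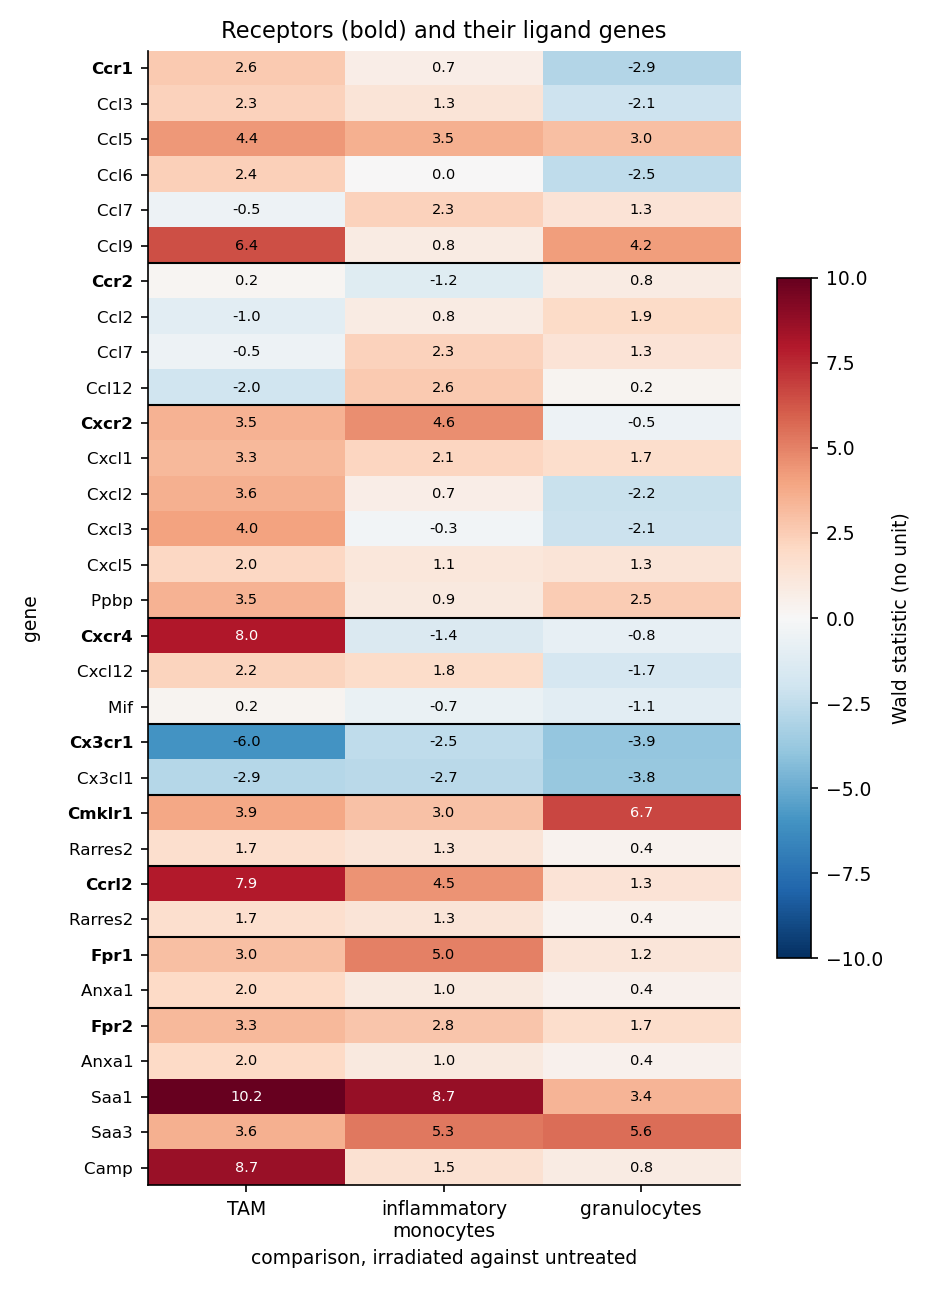
Wald statistics (no unit, colour and printed value) of each receptor gene (bold) and its ligand genes (rows below it), irradiated against untreated, in the 3 subsets, from the authors' deposited tables. Cx3cl1 lies below 0 with Cx3cr1 in all subsets, and Saa3 lies above 0 with Fpr2.

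The other chemokine receptors were called at shares near those of all genes: 26.7% of those tested in macrophages, 7.69% in monocytes and 14.3% in granulocytes, beside 26.4%, 5.90% and 17.2%. In macrophages 3 of 15 tested rose (Cxcr5, Ackr3 and Ccr3) and Xcr1, a marker of cross-presenting dendritic cells, fell. In monocytes 1 of 13 rose, the eosinophil receptor Ccr3 (1.88 on the log2 scale in the authors' deposited table). In granulocytes 2 of 14 rose, among them the scavenging receptor Ackr3 (1.17 on the log2 scale), and none fell in the authors' deposited table.

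Receptors for other chemoattractants, such as complement fragments and lipid mediators, were called in macrophages and granulocytes, at 68.8% and 40.0% of those tested beside 26.4% and 17.2% of all genes. In macrophages 10 of 16 tested rose and 1 fell, among them Ptafr, the platelet-activating factor receptor (1.42 on the log2 scale, adjusted p 8.4e-14), C3ar1, the C3a receptor (0.89), S1pr4 (2.42) and Gpr35 (0.90) in the authors' deposited table. In monocytes none of 15 was called by the authors' DESeq2 test (2 higher and 1 lower at an unadjusted p under 0.05), with C5ar1, the C5a receptor, at 0.03 on the log2 scale and Plaur at -0.36 in the authors' deposited table. In granulocytes 3 of 15 rose, C3ar1 among them (1.10), and 3 fell, the urokinase receptor Plaur (-1.12), the hydroxycarboxylic acid receptor Hcar2 (-1.05) and Gpr35 (-0.65) in the authors' deposited table.

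Of 34 genes that act below these receptors (G-protein subunits, phosphoinositide 3-kinase gamma, arrestins, receptor kinases and RGS proteins), 9 rose and 1 fell in macrophages, 2 rose in monocytes and 2 rose and 2 fell in granulocytes. These are 29.4%, 5.88% and 11.8% of the list, beside 26.4%, 5.90% and 17.2% of all genes. Pik3r6, a regulatory subunit of phosphoinositide 3-kinase gamma, rose in all 3 subsets, with log2 fold changes of 0.69, 0.57 and 0.87 in the authors' deposited tables. Pik3r5, another regulatory subunit of that kinase (0.90), rose in macrophages in the authors' deposited table. So did the RGS genes Rgs18 (1.82) and Rgs2 (0.73), which end G-protein signals. Rgs1 rose in monocytes (0.91), while in granulocytes the arrestin gene Arrb2 rose (0.55) and Gnai3 (-0.43) and Rgs16 (-1.39) fell in the authors' deposited tables.

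**Figure D4:**
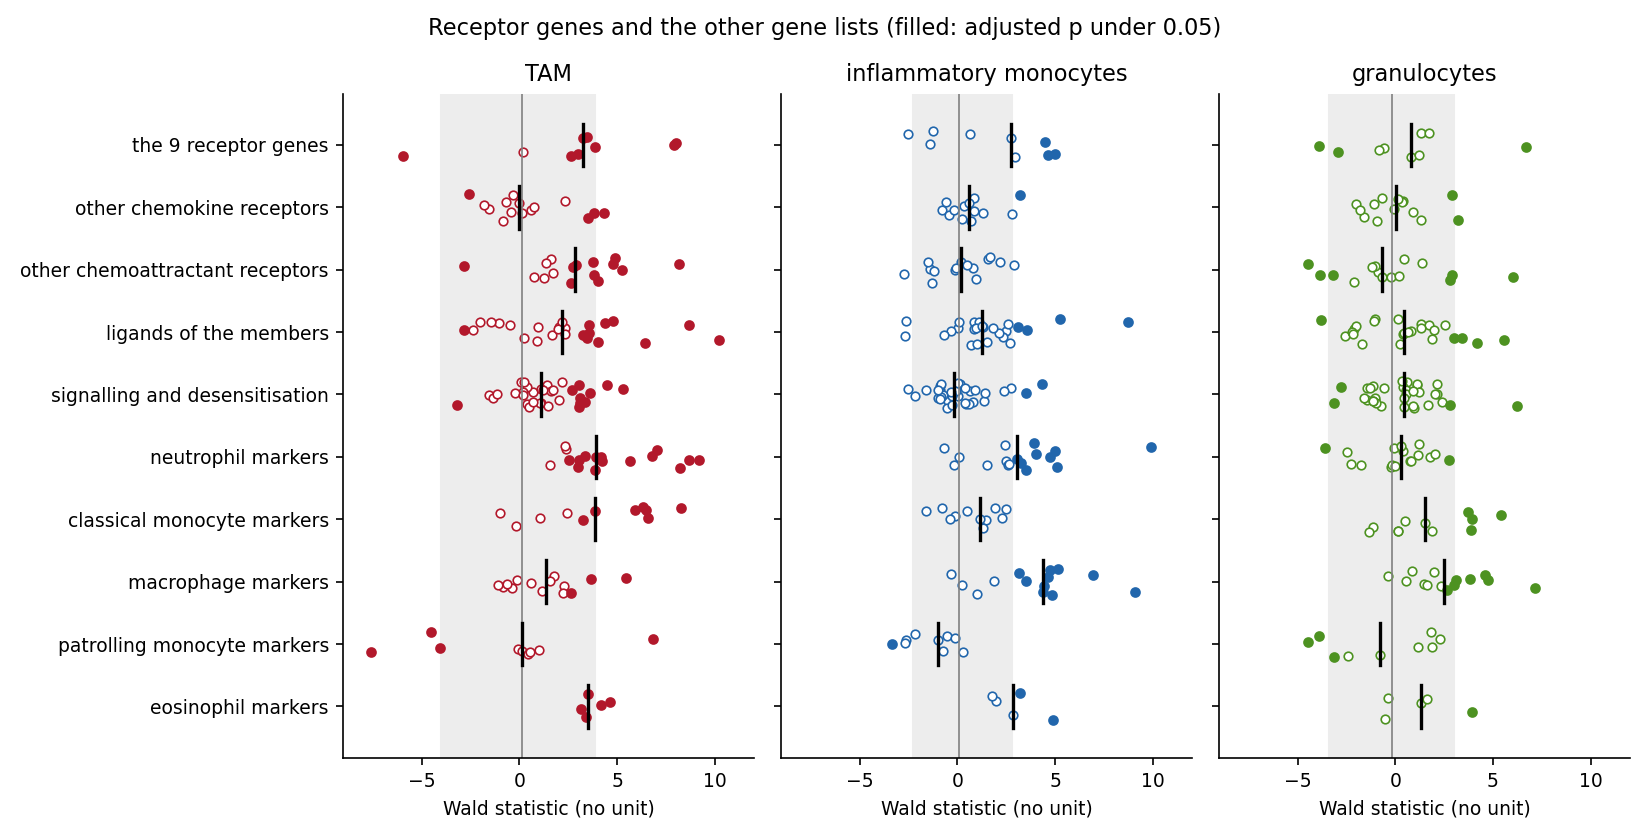
Wald statistics (no unit) of the 9 receptor genes, the 4 other gene lists and 5 of the marker lists in the 3 subsets, from the authors' deposited tables; points are genes (filled, adjusted p under 0.05), black bars the median of a list, and the grey line and band the median and 5th to 95th percentile of all genes tested. By median, neutrophil and classical monocyte markers stand highest of the plotted lists in macrophages (3.91 and 3.89) and macrophage markers in monocytes (4.41).

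The remaining marker lists stood as follows, with the count at an unadjusted p under 0.05 in parentheses where the authors' DESeq2 test called none. Of all genes tested, 13.9% were called higher and 12.5% lower in macrophages. The shares were 4.13% and 1.77% in monocytes and 7.32% and 9.90% in granulocytes. At an unadjusted p under 0.05 in that test, 36.7%, 19.7% and 29.9% of all genes passed in macrophages, monocytes and granulocytes. Of 14 macrophage markers 3 rose in macrophages, 10 in monocytes and 7 in granulocytes, and none fell, with Mertk rising in all 3. Of 5 eosinophil markers tested, 5, 2 and 1 rose in macrophages, monocytes and granulocytes. Of the dendritic cell markers 4 of 14 fell in macrophages and none was called in the other subsets (0 of 13 in monocytes and 1 of 14 in granulocytes). Of 12 T and NK cell markers 2 fell in macrophages and 3 in granulocytes, with none called in monocytes (4, all lower). B cell markers were not called in macrophages (2, both higher), while 2 of 6 rose in monocytes and 2 of 7 in granulocytes. Of 10 epithelial and tumour markers 3 rose in macrophages, 1 in monocytes and none in granulocytes (1). Fibroblast markers fell in macrophages (3 of 8) and granulocytes (3 of 7) and were not called in monocytes (0). The part of such cells in the receptor results was not tested.

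By position, Ccr1, Ccr2, Ccrl2 and Cx3cr1 lie on chromosome 9, Cxcr2 and Cxcr4 on chromosome 1, Fpr1 and Fpr2 side by side on chromosome 17, and Cmklr1 on chromosome 5. Genes around Ccr1 and Ccr2 were called differently: in macrophages Ccr1 and Ccr3 rose (0.52 and 2.46 on the log2 scale), Xcr1 fell (Wald statistic -2.57), and Ccr1l1 and Ccr2 were not called in the authors' deposited table. Reads could be shared for a few of the 9. In the GENCODE M21 transcripts, 31.5% of the 50-base runs of Fpr2 (408 of 1295) occur in another gene, mostly the predicted gene Gm5966 and Fpr3, against 4.01% for Cxcr2, 1.91% for Ccr2, at most 0.269% for Cx3cr1, Cmklr1 and Fpr1, and 0 for Ccr1, Cxcr4 and Ccrl2. An exon of Fpr2 overlaps 1 of Fpr3 on the same strand, and exons of Cx3cr1 overlap those of Gm33858 on the opposite strand. The annotated span of Cx3cr1 overlaps 9 genes in all and that of Cmklr1 overlaps 1, the others without shared exons. How the authors counted such reads is not given in the sources used here and the libraries keep no strand, so the Fpr2 and Cx3cr1 values are uncertain to that extent.

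For each of the 8 genes called somewhere, the genes of most similar response were found by the distance between their 3 Wald statistics (1 per subset), a description over 3 comparisons. Cxcr4 lay closest to Ptafr (distance 0.31), followed by Mefv, the pyrin gene. Fpr1 lay closest to Retnlg (0.36), itself on the neutrophil list, and Cxcr2 to Tctex1d4 (0.65). Cx3cr1 lay closest to Hnrnpa2b1 (0.28) and Fpr2 to Rgl2 (0.28), with the RNA sensor Tlr8 next (0.34). Cmklr1 lay closest to Galns (0.93) and Arg1, the arginase gene (0.94). Ccrl2 lay closest to Plekhn1 (0.95) and Ccr1 to Tnfrsf23 (0.41).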

How the data were processed

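Total RNA of sorted cells was taken with a column kit and libraries were made by transposase tagging, which keeps no strand, per the labels' protocols. Per the submitters' processing notes, the tools were R 4.0.2, DESeq2 1.28.1, STAR 2.7.6a and fastp 0.20.1 and the build mm39 (GRCm39); annotation and read counting: not given in the sources used here. The authors deposited 3 tables of their own comparisons. Each deposited table holds a mean of normalised counts over libraries (a signal, identical in the 3 tables), a log2 fold change (shrunken, judging by its values), its Wald statistic (a score) and a p-value with its adjusted p-value. No further model was fitted. Each deposited p-value equalled the normal p of its Wald statistic to within 0.0021 on the log10 scale where the absolute Wald statistic was over 2. The values of each library are not analysed here, so depth and the spread between tumours are unknown. The labels give numbered tumours as replicates, and most tumour numbers recur in the 3 subsets.

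All values were read with pandas 2.3.3 in Python 3.11.15, and the scripts were tested on simulated data. The 9 receptors, 4 gene lists (other chemokine receptors, other chemoattractant receptors, ligands, signalling) and 10 marker lists were chosen with earlier results of these data known. The text names all 9 receptors, up to 4 called genes of each list and comparison by adjusted p (3 for marker lists, 2 by mean where none was called) and genes among the 3 nearest to each receptor; a few genes that this rule names are not reported here. The named ligands were also taken by receptor, and the neighbours by position. S100a9 was named for a fold against its Wald statistic. Marker counts leave out the receptors themselves. Alternatives were stricter and looser thresholds, adjustment over every gene, a mean count minimum, rescaled and centred Wald statistics, a fold minimum and direction from the fold. The promoter table is of GRCm38.p6, another build than the authors', and was used for sequence only.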

Additional observations from a re-analysis of the deposited data

How the results depend on the processing

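Of 216 receptor values under 8 alternatives, 183 kept their direction and side of the threshold, 29 lost the call, 3 gained it and 1 changed sign. That 1 was Ccr2 in macrophages, at -1.68 when Wald statistics were centred on genes of similar mean. Only 14 of the 27 receptor values were called at the outset. Part of the 183 was fixed by design. Direction from the fold could change nothing, since all folds already matched the Wald sign. A looser threshold could lose no call, and a stricter threshold, a fold minimum or division by the robust SD could gain none. Dividing Wald statistics by their robust SD left 0 receptors called in macrophages, 0 in monocytes and 0 in granulocytes, against 8, 3 and 3, and 3, 3 and 1 at an unadjusted p under 0.05, which 3.71%, 5.22% and 4.01% of all genes passed. The same step left 0, 25 and 0 genes called over all genes, against 4448, 856 and 2699. Centring left 4 receptors called in macrophages, as did a minimum log2 fold change of 1 in either direction (4). In monocytes a threshold of 0.1 called 5 receptors. Over all genes a threshold of 0.01 called 2918, 369 and 1420, and the fold minimum 1657, 360 and 1158. In monocytes a threshold of 0.1 called 1343 genes and adjustment over every gene 543. No receptor was called for opposite effects in any pair under any of these settings. The cause of each change was not tested. Leaving out replicates could not be run, because the values of each library are not analysed here. No paired analysis was possible because no tumour number is shared by untreated and irradiated libraries and the deposited tables hold comparisons only.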

Other observations

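Some chemoattractant receptors outside the 9 had called changes of opposite sign in macrophages and granulocytes; they were singled out after their values were seen. Hcar2 had a Wald statistic of 4.03 in macrophages and -3.85 in granulocytes, Plaur of 3.82 and -4.48, and Gpr35 of 4.77 and -3.19 in the authors' deposited tables. By the larger of both p-values, adjusted over all genes tested in both subsets, Hcar2 and Plaur reached 0.075 and Gpr35 0.28, so none passed 0.05.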
